A study of Caenorhabditis elegans with 2 samples.

Results

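Y65A5A.2 is a protein-coding gene of chromosome IV of the nematode Caenorhabditis elegans that carries several sites in a ChIP-seq experiment on the homeobox protein CEH-90. It is 1 of 19973 protein-coding genes of the nuclear chromosomes. It was chosen from the measurements themselves, because several entries of the list of peaks that passed a reproducibility cutoff lie in it. The number and the strength of its sites are therefore given as a description and are not tested. All summits were collected from 2000 bp before to 2000 bp past the gene, IV:16410020 to 16419429 in build ce11.

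Chromatin came from whole hermaphrodites at the first larval stage, L1, of strain OP210, genotype unc-119(ed3) III; wgIs210. The integrated transgene wgIs210 adds a copy of CEH-90 fused at its C terminus to GFP and FLAG, and the fusion was recovered with an antibody against GFP. Worms were starved after bleaching and collected 6 hours after synchronization. The experiment has 1 group of 2 biological replicates, with no second condition, and the strain is a single transgenic line, so the fusion and not the endogenous protein was measured. The deposited lists hold 23796 peaks for replicate 1, 30000 for replicate 2, 30000 for the pooled reads and 765 in the list that passed a cutoff on the irreproducible discovery rate, IDR, which scores whether a peak keeps its place in the ranking from replicate to replicate. An entry of the IDR list need not rank alike in both replicates, and 717 of the 765 had a summit within 100 bp in both. The lists give no read counts, so depth is unknown, and the control behind them was not analysed here.

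A homeobox gene encodes a transcription factor with a homeodomain, a fold that contacts DNA at short sequences. ChIP-seq recovers DNA fragments crosslinked to such a factor, directly or through other proteins, and a summit marks the base where their pile is highest. Genes of C. elegans often have several annotated starts, and a long intron of one transcript can be the region before the start of a shorter one. What Y65A5A.2 does in the worm is not described by the files used here.

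The gene, WBGene00013419, lies on the plus strand at IV:16412020 to 16417429 and spans 5410 bp (Ensembl release 115, WBcel235). It has 3 annotated transcripts with staggered starts and a shared last part. Transcript a starts at 16412020, has 5 exons and encodes 333 residues. Transcript c starts at 16414840, inside exon 3 of a, has 3 exons and encodes 187 residues. Transcript b starts at 16416085, inside exon 4 of a, has 2 exons and encodes 112 residues. Exon 3 ends at 16415059, and the third intron of a, of 1020 bp, runs from 16415060 to 16416079. The same stretch is the first intron of c and the region just upstream of b.

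All 3 IDR entries of the gene lie inside that intron. The summit nearest exon 3, called the upstream site, is at IV:16415276, the downstream site is at 16415806, and a weaker middle site is at 16415481. The upstream and downstream sites sit on matching stretches of the intron. An ungapped comparison of the intron with itself found 67 bases at 16415259 to 16415325 that recur 506 bp further on, at 16415765 to 16415831, with 63 of 67 bases identical (94.0%). The 101 bases around each summit, from the plus strand of ce11, are shown because they carry this finding. Capitals mark the 67-base element, which is present around the outer summits and absent around the middle one.

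upstream site, IV:16415226 to 16415326: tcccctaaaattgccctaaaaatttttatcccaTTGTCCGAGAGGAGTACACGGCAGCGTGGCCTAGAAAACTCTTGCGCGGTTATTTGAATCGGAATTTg
middle site, IV:16415431 to 16415531: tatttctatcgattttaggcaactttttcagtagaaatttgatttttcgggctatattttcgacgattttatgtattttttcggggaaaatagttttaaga
downstream site, IV:16415756 to 16415856: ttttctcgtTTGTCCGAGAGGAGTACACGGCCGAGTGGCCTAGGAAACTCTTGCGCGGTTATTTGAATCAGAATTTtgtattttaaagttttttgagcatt

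Aligned alone, the copies differ at 4 bases, set in capitals here. Counted from 1 at the first base of the element, with the upstream copy's base before the number and the downstream copy's after it, they are A23C, C25A, A35G and G61A.

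upstream copy: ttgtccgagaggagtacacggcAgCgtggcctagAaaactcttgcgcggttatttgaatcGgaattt
downstream copy: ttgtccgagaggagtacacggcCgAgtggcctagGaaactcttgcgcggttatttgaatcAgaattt

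The element is the best conserved stretch of a longer repeat. With gaps allowed, blastn aligned 16415577 to 16415966 of the intron with 16415032 to 16415450, over 436 columns at 69.95% identity. In this alignment the first stretch begins in the last bases of exon 3. Another alignment, of 16415096 to 16415450 with 16415610 to 16415966 at 72.4% identity, begins inside the intron. The start of the repeat thus depends on the alignment, and the aligned stretches together cover most of the intron. Each copy of the element had 49.3% GC, against 31.8% for the whole intron and 33.1% for the whole gene.

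In all 4 lists the summits of the outer sites fell inside the element. The upstream summit was at base 30 of its copy in replicate 1, at base 26 in replicate 2 and at base 18 in the pooled and IDR lists. The downstream summit was at base 42 of its copy in replicate 1, at base 46 in replicate 2 and at base 42 in the pooled and IDR lists. The middle IDR summit lay 156 bp past the end of the upstream copy and 284 bp before the start of the downstream copy. Distances between the outer summits were 518 bp in replicate 1, 526 bp in replicate 2 and 530 bp in the pooled list, beside the 506 bp between the copies.

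**Figure D1:**
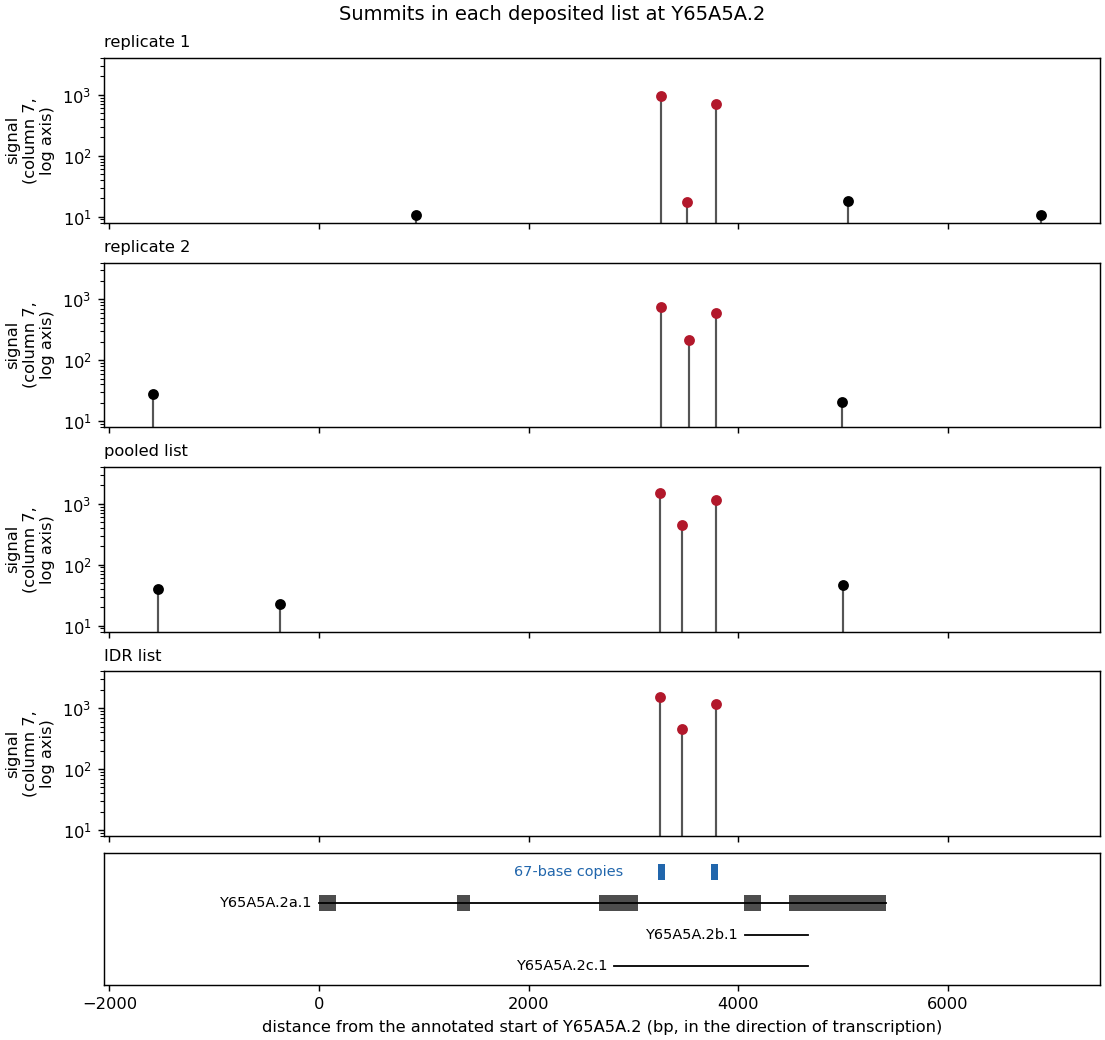
Summits in the 4 deposited ce11 lists (upper panels, authors' signal on a log axis) against the distance in bp from the annotated start of Y65A5A.2. Red points lie in the third intron and black points elsewhere; the lowest panel shows the exons of transcript a as boxes, the spans of transcripts b and c as lines and the 2 copies of the 67-base element in blue. The outer red points stand over the copies in every list, with signals of 584 to 1528, and the red point between them is at 17.4 in replicate 1 and 215 in replicate 2.

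The signal given here is the authors' own value per peak, column 7 of the lists. Its scaling is not stated, so levels are read within a list, and a ratio between lists holds any difference in their scaling and is read only against the same ratio at other entries. The upstream site had a signal of 954 in replicate 1, where it ranked 4, and of 735 in replicate 2, where it ranked 6. In the pooled list it had 1528 and ranked 6 of 30000. These signals were 75.03%, 66.6% and 64.4% of the strongest peak of the same list.

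The downstream site had 703 in replicate 1 (rank 11), 584 in replicate 2 (rank 14) and 1152 in the pooled list (rank 16). It was the weaker of the outer sites in all 3 lists. Its signal divided by that of the upstream site in the same list was 0.737 in replicate 1, 0.795 in replicate 2 and 0.754 in the pooled list. The order of the copies was thus the same in both replicates, and 2 replicates allow no test of it.

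The middle site differed between the replicates. Its nearest summit had a signal of 17.4 in replicate 1, where it ranked 5187 of 23796, and of 215 in replicate 2, where it ranked 102 of 30000. These summits were at 16415533 and 16415548, which is 52 and 67 bp past the pooled summit. At the outer sites the replicate summits were 0 to 12 bp from the pooled ones. Both middle positions lie outside the 101 bases printed for the middle site. The sequence, motifs and GC content given for that site therefore describe the pooled summit only. The pooled entry had 456 and ranked 99, which is its rank in the IDR list too. Relative to the upstream site of the same list, the middle site stood at 0.0182 in replicate 1, 0.293 in replicate 2 and 0.298 in the pooled list. By this ratio replicate 2 stood close to the pooled list, and replicate 1 did not. The replicate 2 summit lay 67 bp from the pooled one, so the like ratios need not describe the same peak.

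The signal in replicate 2 divided by that in replicate 1 was 0.770 at the upstream site, 0.831 at the downstream site and 12.4 at the middle site. Over all 717 IDR entries with a summit within 100 bp in both replicates, the ratio ran from 0.379 to 12.4 with a median of 1.13. The middle site of Y65A5A.2 had the highest ratio of the 717, and the next highest was 5.64. Among the 100 strongest IDR entries, all of which had a summit in both replicates, the median was 0.896.

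**Figure D2:**
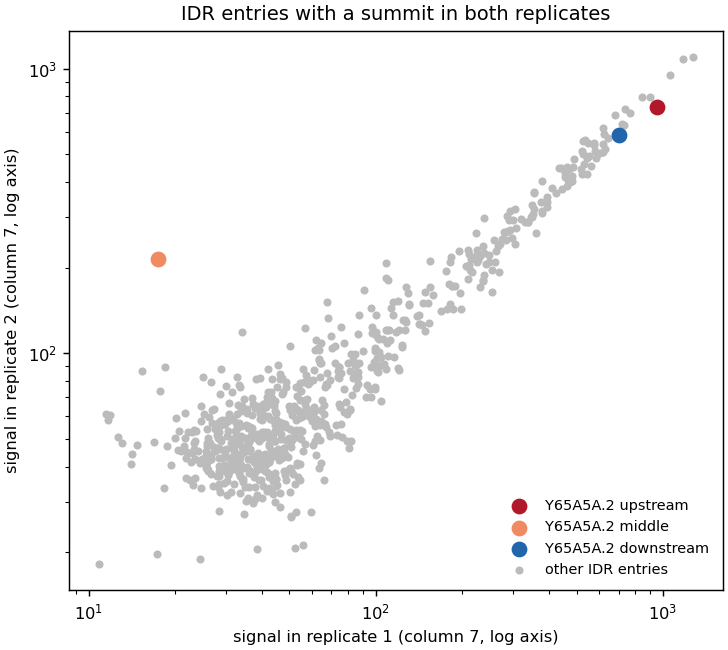
Signal in replicate 2 against signal in replicate 1, both on log axes, for the 717 IDR entries with a summit within 100 bp in both lists. The upstream and downstream sites of Y65A5A.2 lie near other strong entries, at ratios of 0.770 and 0.831. The upstream ratio is low among strong entries, and the lowest of the 100 strongest is 0.717. The middle site lies far above the other entries, at 12.4.

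The middle entry also stands apart by its edges. In the pooled and IDR lists it covers 16415116 to 16415584 and the upstream entry covers 16415116 to 16415536, so the 2 entries begin at the same base and share all 421 bp of the upstream one. The downstream entry covers 16415587 to 16416002 and begins after a gap of 2 bp. Among all IDR entries, 56 of 765 (7.32%) overlap another entry and 4 (0.523%) begin at the same base as another, among them these 2. In both replicates the middle entry begins at 16415348 and has the width that nearly all entries of that list have, 370 bp in replicate 1 and 400 bp in replicate 2, with the summit at its centre. The outer entries are narrower in the replicates, from 334 to 369 bp, and 416 and 421 bp in the pooled list, where the usual width is 430 bp.

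The authors' q-value separated the sites in replicate 1 alone. All 3 entries had a -log10 q of 2.98 in the IDR list, which is its highest value and is shared by 475 of the 765 entries. In replicate 1 the outer sites had 3.02 and the middle site 0.215, which is above a q of 0.05. In replicate 2 and in the pooled list all 3 had 2.98.

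Relative to the annotated starts, all 3 sites lay past those of a and c and before that of b. The upstream summit was 436 bp past the start of c and had an offset of -809 bp from that of b, a negative offset being upstream. The downstream summit had an offset of -279 bp from the start of b and of 966 bp from that of c. The middle summit had offsets of -604 bp from b and 641 bp from c. With a promoter window of 1000 bp upstream to 200 bp downstream of a start, all 3 count as sites at the start of b, although each is intronic in a and c. The start of transcript a had no IDR summit: the nearest pooled summit, at -373 bp, had a signal of 22.7 and ranked 24769 of 30000.

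The remaining summits of the window were weak. Of the 20 summits that the 4 lists place there, 12 lay in the third intron. The other 8 had signals of 10.6 to 18.2 in replicate 1, 20.7 to 27.8 in replicate 2 and 22.7 to 47.0 in the pooled list, and the weakest IDR entry has 71.4. Their best ranks were 4412, 2770 and 2469. One of these positions recurred in all 3 lists, in the 3' UTR within exon 5, at 16417065 in replicate 1 (18.2), 16417012 in replicate 2 (20.7) and 16417024 in the pooled list (47.0). A position upstream of the gene was found in replicate 2 at 16410438 (27.8) and in the pooled list at 16410483 (39.7), and not in replicate 1.

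Genes and introns with several IDR summits were rare. With the same window around every gene, 10 of 19973 protein-coding genes had at least 3 IDR summits, which is 0.0501% (exact 95% interval 0.0240 to 0.0921%), and 7.33% had at least 1. Neighbouring genes can share summits, and some of the 10 do, so genes are not independent, which the interval ignores. Since Y65A5A.2 was chosen for its several peaks, its place among the 10 is no finding. Of 109516 distinct introns of protein-coding transcripts, 2 held at least 3 IDR summits (0.00183%) and 0.116% held at least 1. A short intron has little room for 3 summits, and the share was not taken among introns of like length. The other such intron, of Y111B2A.12 on chromosome III, is 12610746 to 12617821 and thus longer. The IDR summits of that gene ranked 426, 727 and 752.

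The genes most like it, ordered by the rank of their second strongest site, were gly-9 and mib-1, which overlap on chromosome III and share their 3 summits, then dnj-12, ubc-8 and elpc-4. Their second strongest sites ranked 78 for gly-9 and mib-1, 92 for dnj-12, 350 for ubc-8 and 354 for elpc-4, beside rank 16 for Y65A5A.2. The gene ubc-8 had 5 summits and the others 3. Their summits spanned 4441 bp at gly-9 and mib-1, 3020 bp at dnj-12, 3144 bp at ubc-8 and 4085 bp at elpc-4, against 530 bp at Y65A5A.2. None of the other 9 genes had all of its summits within 530 bp. The products of gly-9, dnj-12 and ubc-8 belong by name to the polypeptide N-acetylgalactosaminyltransferases, the DnaJ cochaperones and the ubiquitin-conjugating enzymes.

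The surroundings held no further strong site. No other annotated gene overlapped the window, and the nearest protein-coding genes were Y65A5A.1, 12194 bp before the gene, and Y10G11A.1, 7208 bp past it. Of the 10 nearest protein-coding genes on each side, 0 of 20 had an IDR summit at a start, where 4.46% of all protein-coding genes have such a summit. The nearest IDR summit outside the intron was at 16422375, past the end of the gene and 7099 bp from the upstream site, with a signal of 87.6 and rank 526. Chromosome IV is known for clusters of piRNA genes, and the nearest piRNA gene lay 15412 bp from Y65A5A.2.

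The 67-base element occurs elsewhere in the genome in part. With blastn at an e-value of 0.001, a search chosen after the copies had been seen, the copies aligned at 57 places of the nuclear genome, over 23 to 69 columns. Besides Y65A5A.2 there were 55, and 26 of these (47.3%, exact 95% interval 33.7 to 61.2%) had an IDR summit within 100 bp. Of the other 29 places, 6 had a weaker pooled summit and 23 had none. With the 2 copies of Y65A5A.2 the places account for 28 of the 765 IDR entries (3.66%), and for 5 of the 20 strongest. Y65A5A.2 was chosen for its IDR entries, so the share describes the list and is not an independent test. No share over comparable places of the genome is set beside it. Some of the places lie close to one another, so they are not independent, which the interval ignores.

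Among these places the copies of Y65A5A.2 were strong but not the strongest. The 26 other places with an IDR summit had signals of 75.8 to 2264, with a median of 487, and ranks of 2 to 670. One was stronger than the upstream site and 3 were stronger than the downstream site. Counted from base 1 of the element, their summits lay at positions 5 to 54, with a median of 32. Those of Y65A5A.2 in the IDR list lay at 18 and 42. Many of the other places aligned over only part of the element, so a position need not fall on an aligned base. The strongest of them, at rank 2, aligned over 26 columns and had its summit at position 54.

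**Figure D3:**
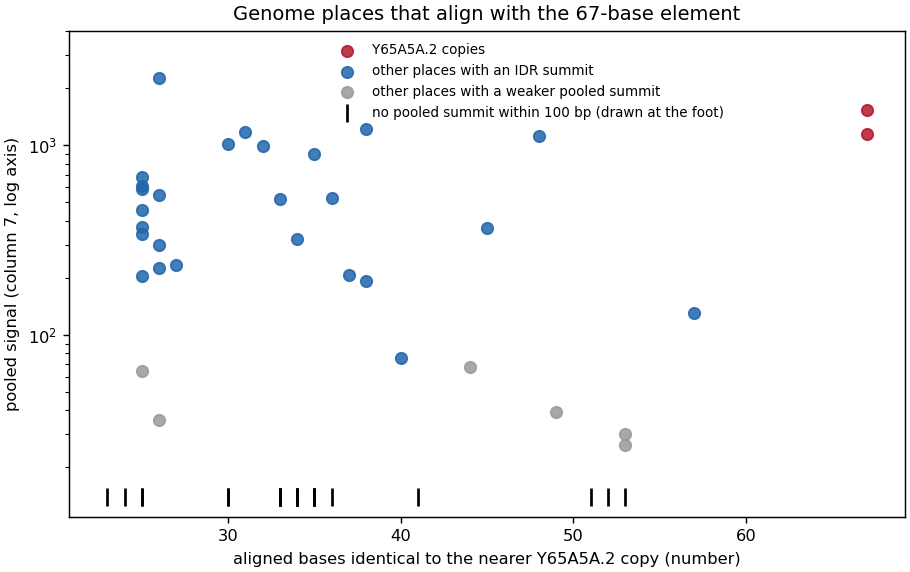
Pooled signal (log axis) against the number of aligned bases identical to the nearer Y65A5A.2 copy, for the 57 places that align with the 67-base element. The 2 copies of Y65A5A.2 are at the right, at 1528 and 1152; 26 other places have an IDR summit (blue), 6 a weaker pooled summit (grey) and 23 none within 100 bp (ticks at the foot).

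At a cutoff of 60 columns, few of the longest matches had an IDR summit. Of the 6 other places that aligned over at least 60 columns, with at most 86.4% identity, 1 had an IDR summit, at rank 297. A place just below that cutoff, with 59 columns, had one at rank 22. By strength of match the share was not lower: at an e-value of 1e-06, 6 of 10 places (60%) had an IDR summit. The leading bases were the shared part. Read along the element, bases 1 to 22 equalled the downstream copy at a mean of 93.5% over the 26 places with an IDR summit and 92.3% over the 29 without. Bases 23 to 36 did so at 57.4% with a summit and 42.6% without, and bases 37 to 67 at 35.4% and 31.5%. The downstream copy was the only reference, and the upstream copy itself equals it at 78.6% of bases 23 to 36. Places that matched the upstream copy best were mostly among those without an IDR summit. Some alignments of both groups hold gaps, more of them among the places without an IDR summit. A gap can put later bases out of register with the element. What the choice of reference and the gaps add to the difference was not tested. The blocks were set after the values were seen, and the search itself selects for some matching stretch, so these shares are given with no test.

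**Figure D4:**
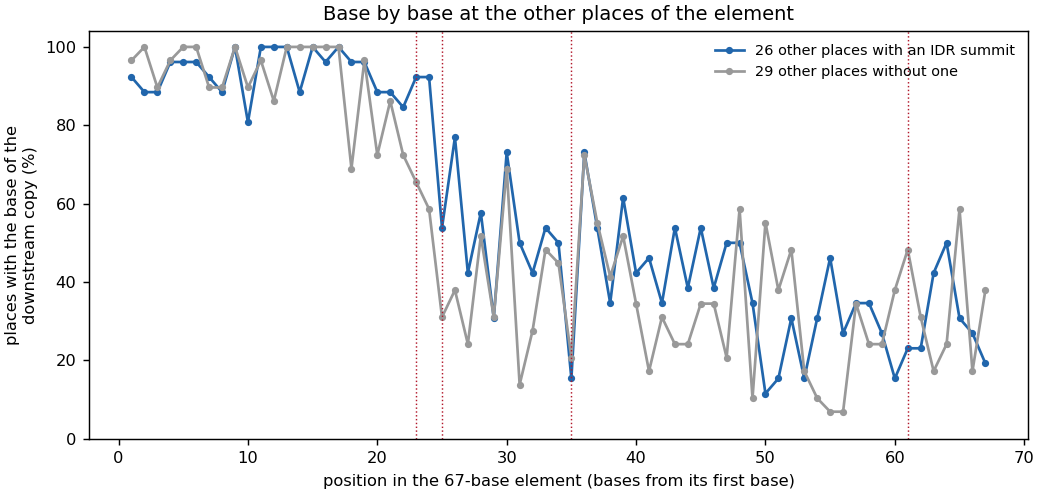
Share of the other places of the element, in percent, that carry the base of the downstream Y65A5A.2 copy at each of its 67 positions, for the 26 places with an IDR summit (blue) and the 29 without (grey). Dotted lines mark the 4 positions at which the Y65A5A.2 copies differ; the curves average 93.5% (blue) and 92.3% (grey) up to base 22 and 57.4% and 42.6% over bases 23 to 36, and they cross at single bases within and outside these stretches.

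Pairs of copies were few. Of the 57 places, 5 neighbouring pairs lay within 2000 bp of each other. The pair of Y65A5A.2 had an IDR summit at both members, which the choice of the gene and of the element had fixed in advance. Its contrast with the other pairs is therefore no finding. The other 4 pairs, of which 1 was in cacn-1 on chromosome II and 3 were on chromosome III, had no IDR summit at either member.

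Of 6 short motifs named by earlier results of these data, searched on both strands within 50 bp of the summits, 3 were present at both outer sites and 0 at the middle one. The first, GGCCAC, was found at 19.1% of all IDR summits, against 2.06% of the 29008 pooled summits whose entries overlap no IDR entry. The motif GGCCTA was found at 18.8% of IDR summits, against 2.17% of the other pooled summits. The motif CTAGGC was found at 17.6% of IDR summits, against 1.93% of the other pooled summits. These 3 overlap one another within a single stretch of the element when both strands are read, so they are not 3 separate sites. The windows of Y65A5A.2 held no CGGCCA, which was at 17.5% of IDR summits and 2.05% of the other pooled summits. They also held no ACGCGC, which was at 13.99% of IDR summits and 1.82% of the others. The core TAAT, which many homeodomains bind, was absent from the windows and was at 50.5% of IDR summits and 67.6% of the others. The GC content within 50 bp was 44.6% at the upstream site, 40.6% at the downstream site and 27.7% at the middle site. The median was 44.6% over all IDR summits and 32.7% over those other pooled summits.

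Sequences of 36 bases could be placed at all 3 sites. Each of the 887 start positions from the first to the last base of the 3 entries, the gap of 2 bp included, had a 36-base sequence that occurs at 1 place in the genome (100%), so reads of that length could be told apart between the copies. Among all IDR entries, 669 of 765 were at 100% and 7.45% were below 90%. The read length is not given in the sources used here.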

How the data were processed

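Chromatin immunoprecipitation with an anti-GFP antibody was sequenced for 2 replicates of 1 group. The authors' descriptions of the deposited files derive the replicate and pooled lists from alignments and a shared control, and the IDR list from those lists. The sources used here name no aligner, peak caller or IDR threshold. The authors deposited a signal per peak with no stated scaling (column 7), a q-value as -log10 (column 9) and the summit's offset (column 10). The IDR list repeats pooled entries and values, so its ranks are not independent of the pooled list.

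Summits were read in ce11 with 1-based positions. No entry ended past a chromosome of the WBcel235 reference, whose gene models (Ensembl 115) were used. Ranks follow column 7. Summits of different lists were matched within 100 bp. The element is the highest-scoring ungapped self-match of the intron (score 1 per match, penalty 2 per mismatch) at offsets of 400 to 600 bp, a range set around the spacing of the outer summits. It was searched with blastn 2.17.0 (word size 7, no dust filter, e-value 0.001). Python 3.11.15, NumPy 2.4.6 and SciPy 1.17.1 were used. Counting and repeat finding were tested on simulated data. Intervals are exact binomial (Clopper-Pearson, 95%) over genes or places and cover counting error only.

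The gene, the 6 motifs and the settings were chosen with earlier results of these data known. Named were Y65A5A.2, genes overlapping its window, those of the 20 nearest protein-coding genes with an IDR summit at a start, and up to 5 genes elsewhere with at least 3 IDR summits, by the rank of the second. The nearest genes and Y111B2A.12, cacn-1 and others beyond that rule were named after their values were seen.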

Additional observations from a re-analysis of the deposited data

How the results depend on the processing

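No paired analysis was possible because there is 1 group. Of 34 alternative settings over 10 results, 25 left the value within its error or, for counts, within 1.5 times. Without replicate 1 or 2, using the 765 strongest peaks of the other, Y65A5A.2 had 3 or 2 summits; the summit lost was the middle one, whose rank was 102 in replicate 2 and 5187 in replicate 1. The rank of the upstream site ran from 4 to 6 and that of the downstream site from 11 to 14. The strongest summit lay 444 to 448 bp from the nearest start, against 436 bp in the IDR list. The share of genes with at least 3 summits was 0.02003 to 0.03004% without 1 replicate, 0.255% with flanks of 5000 bp and 0.01001% (2 genes) with only IDR entries above the median signal, against 0.0501%. The share of 25-mers that were unique under the entries was 98.5%. With summits matched within 50 bp, or with only the 765 strongest peaks of each replicate as partners, 2 of the 3 sites were found in both replicates, and the third was the middle one. The share of other element places with an IDR summit ran from 47.3 to 60%, the highest at an e-value of 1e-06 (6 of 10 places); these settings were chosen after seeing the data. Depth limits all values in an unknown way, because no list holds read counts.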

Other observations

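The pooled list for build ce10, which entered no result above, held all 3 sites. On chromosome IV, the pooled ce10 list had entries with the signals of the ce11 entries of Y65A5A.2, namely 1528 at the upstream site, 456 at the middle site and 1152 at the downstream site, at ranks 6, 99 and 16. Their summits were spaced as in ce11, with 205 bp from the upstream to the middle summit and 530 bp from the upstream to the downstream one. No coordinates were converted between builds, and the entries were matched by signal and chromosome alone, by which the middle site could not be identified in the ce10 lists of the replicates.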
